A study of Neurospora crassa with 34 samples.

Results

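The structural variants of AR16, a Neurospora crassa strain mapped as a pericentric inversion of linkage group (LG) I, were examined in the input DNA of its 2 isolates, N5100 and N5865. Members were all complete lines of the read-pair and split-read call lists of these isolates, 928 of the 2782 calls in the lists of 9 isolates, with 210 calls in N5100 and 718 in N5865. The other 7 isolates carry different rearrangements and contributed 1854 calls: ALS159 (N5101), OY329 (N5102), OY337 (N5858), UK2-32 (N5859), OY350 (N5862), OY320 (N5863) and UK3-41 (N5866). The study used such strains to ask how moving chromosome segments changes H3K27me2/3, a repressive histone mark that covers subtelomeric domains in this fungus. N5100 is listed as mat a; In(IL->IR)AR16, whereas N5865 is known here only by its sample label, which names AR16. The other isolates are all mat A and are listed as T(IV->VI)ALS159, T(VI->III)OY329, T(II->IV)OY337 with al-2, T(IVR->VL)UK2-32, T(VIL->IR)OY350, T(VI->III)OY320 and UK3-41 with inl, the last an insertional translocation of part of LG VR. All were grown as germinated conidia in minimal medium. Each isolate is 1 library, so values below have no replicate error and no test of one isolate against another was possible.

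A pericentric inversion turns around a stretch of chromosome that holds the centromere, so its DNA should be joined at each breakpoint to sequence that normally lies on the other arm. Paired reads that map too far apart or in the wrong orientation, and single reads that split over 2 places, mark such joins. They mark with the same signature any other place where a strain departs from the reference sequence, including small deletions and copies of DNA placed elsewhere, and repeated DNA can give them as well. A call is therefore a junction between a pair of reference positions, with a type (deletion, duplication, inversion or interchromosomal) given by the strands and chromosomes of its ends, and with a number of supporting reads. Positions are in bp on the corrected OR74A (NC12) genome, and a pair of calls counted as 1 junction if their left ends and their right ends were each at most 1000 bp apart.

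N5865 had 718 calls, more than any other isolate, and N5100 had 210, while the other 7 had between 154 (OY350) and 364 (UK3-41). The N5100 lists held 152 read-pair and 58 split-read calls, and the N5865 lists held 500 and 218. Both AR16 isolates were richer in deletions than the rest. Deletions were 54.3% of the calls in N5100 (exact 95% binomial interval 47.3 to 61.2) and 56.1% in N5865 (52.4 to 59.8), against 27.3 to 45.2% in the other 7. Interchromosomal calls were 38.1% (31.5 to 45.0) in N5100 and 37.0% (33.5 to 40.7) in N5865, against 45.2 to 59.8%. The intervals of UK2-32, 39.9 to 50.5% for both types, overlapped those of N5100, and for interchromosomal calls also that of N5865. There were 6 inversion and 10 duplication calls in N5100, and 35 and 14 in N5865. These intervals cover counting error only and treat calls as independent. A junction in both lists counts in each, so the intervals are too narrow.

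The supporting reads per call also differed between the libraries. The median read-pair call had 8.5 reads in N5100 and 7 in N5865, against 5 to 6 in the other 7, and no list held a call with fewer than 4. Only 2 junctions were called in all 9 isolates. That of LG V at 7242 with an unplaced contig had 31 read pairs in N5100, 130 in N5865 and 88 to 168 in the other 7. The inversion of LG II from 2115509 to 2131986 had 4 read pairs in N5100, 5 split reads and no read-pair call in N5865, and 4 to 14 read pairs in the other 7. N5100 was the lowest at the first of these and equal to the lowest of the other 7 at the second, although its median call was the highest. The sequencing depth of the libraries is not in the lists, so a junction that is absent and one that was sequenced too thinly cannot be told apart.

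Most calls of both AR16 isolates were found in no other isolate. This held for 145 of 210 calls in N5100, 69.0% (62.3 to 75.2), and for 480 of 718 in N5865, 66.9% (63.3 to 70.3), against 27.5% of the calls of the other 7 isolates together. The highest share among the other 7 was 47.5% (42.2 to 52.8) in UK2-32 and the lowest was 14.5% (10.2 to 19.9) in OY320. The shares of the AR16 isolates were close to each other and lay above those of the other 7. Calls matched in both lists made up 37.1% in N5100 and 35.5% in N5865, against 11.7 to 26.9% in the other 7. Such junctions count in each list, so the intervals are too narrow and do not serve to separate isolates. The excess appeared in both main types. Of deletion calls, 59.6% were specific in N5100 and 60.5% in N5865 against 23.3% in the other 7, and of interchromosomal calls 81.2% and 75.2% were specific against 30.2%. The rarer types had few calls, with 4 of 6 inversions and 8 of 10 duplications specific in N5100 and 25 of 35 and 11 of 14 in N5865, against 20.7% of inversions and 45.3% of duplications in the other 7. Specific calls had as many reads as the others, with a median of 8 in each class for N5100 and 7 in each class for N5865.

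**Figure D1:**
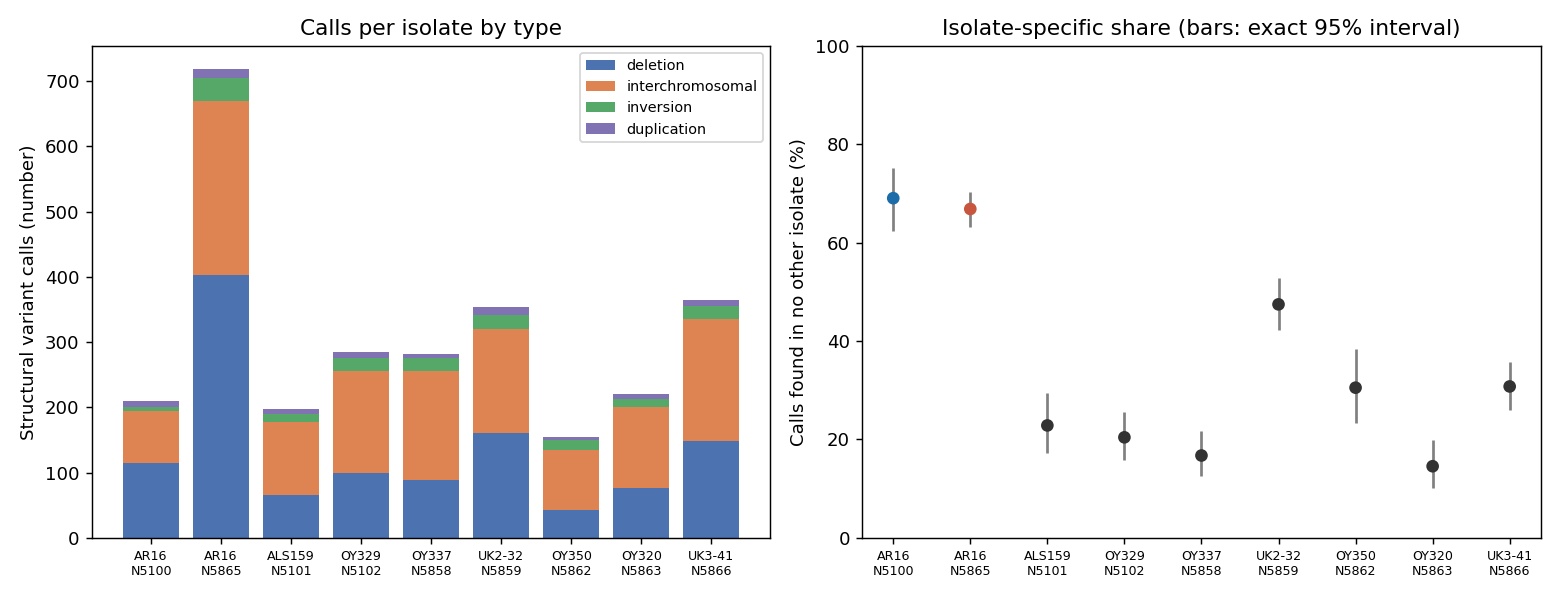
The left panel stacks the number of calls of each isolate by type, and the right panel gives the percent of calls found in no other isolate, with bars for the exact 95% binomial interval. N5865 stands highest on the left at 718 calls, and both AR16 isolates stand highest on the right at 69.0% and 66.9%.

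The AR16 isolates also lacked junctions that recur in the rest. Of 52 distinct junctions found in at least 5 of the other 7 isolates, N5865 had 26 (50.0%), N5100 had 7 (13.5%) and both had 3. When each of the other 7 was set against the remaining 6, it had between 58.3% (UK2-32) and 97.1% (OY337) of the junctions found in at least 5 of those. That is a stricter rule than 5 of 7 and left 34 to 48 junctions, so the percents are not strictly comparable. N5100 held fewer of these common junctions than any other isolate. The part of library depth in this was not tested.

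The next question was what the AR16 isolates have in common. Of the N5100 calls, 32 (15.2%, 10.7 to 20.8) were also in N5865, and 36 of the N5865 calls (5.01%, 3.54 to 6.87) were also in N5100. In the 21 pairs without AR16 the share of one isolate's calls found in the other ran from 13.6% (UK2-32 calls in OY320) to 62.3% (OY320 calls in OY337), so the N5100 share lay near the low end of this range and the N5865 share below it. N5865 shared more calls with UK3-41 (107, 14.9%), OY329 (93), OY337 (93) and UK2-32 (91) than with N5100, and N5100 was the isolate with which it shared fewest. For N5100 the other AR16 isolate came first, followed by UK2-32 with 28 calls (13.3%) and ALS159 with 23.

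Calls restricted to the AR16 pair numbered 18 in N5100 (8.57%, 5.16 to 13.2) and 20 in N5865 (2.79%, 1.71 to 4.27), which together gave the pair rank 3 among the 36 isolate pairs (sum of 38, against a median of 8 and a highest sum of 44 in the 21 pairs without AR16). Calls in exactly 1 other isolate, whichever it was, made up 17.1% of the N5100 calls and 14.6% of the N5865 calls, close to the 17.2% of all calls in the 9 isolates. The calls restricted to the AR16 pair formed 14 distinct junctions, of which 11 were deletions on LG III and 3 were interchromosomal. None had both ends on LG I and none was an inversion. In 13 of the 14 the ends given for the 2 isolates lay within 1 bp of each other, and in the other they differed by 8 bp.

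The 11 shared deletions lay between 3431309 and 4532411 on LG III, a stretch of 1.10 Mb, and spanned 11 to 26395 bp with a median of 507 bp. The longest, 4255549 to 4281944, had 13 read pairs and 5 split reads in N5100 and 9 and 8 in N5865. A deletion of 3268 bp at 3518489 had 18 read pairs and 10 split reads in N5100 and 13 and 6 in N5865. A deletion of 4339 bp at 3555798 had 16 and 16 reads in N5100 and 15 and 6 in N5865. These 3, together with a deletion of 181 bp at 3431309 (6 and 5 reads in N5100, 6 and 4 in N5865), were in both lists of both isolates. No other shared junction was in all 4 lists.

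The remaining shared deletions had support from fewer lists. A deletion of 4329 bp at 4528082 had the most read pairs, 24 in N5100 and 15 in N5865, with 8 split reads in N5865 alone. Deletions of 715 bp at 3578155, 334 bp at 4300331 and 377 bp at 4333225 were seen by read pairs only, with 8, 13 and 14 reads in N5100 and 13, 11 and 11 in N5865. The deletions of 11 bp at 3533236 and 64 bp at 4524131 were seen by split reads only, with 7 and 9 reads in N5100 and 15 and 8 in N5865. The deletion of 507 bp at 4334872 had 8 read pairs in N5100 and 9 split reads in N5865. Neither isolate was consistently the better supported.

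Another 2 junctions of the pair, both interchromosomal, ended on LG III inside the same stretch. The join of LG I at 1944980 with LG III at 3738704 had 6 read pairs in N5100 and 9 read pairs with 4 split reads in N5865. The join of LG III at 4310202 with LG V at 6104633 had 7 read pairs in N5100 and 5 in N5865. The last, LG II at 1222454 with LG IV at 367868, was the only shared junction without an end on LG III, and it had 4 split reads in each isolate and no read pairs.

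**Figure D2:**
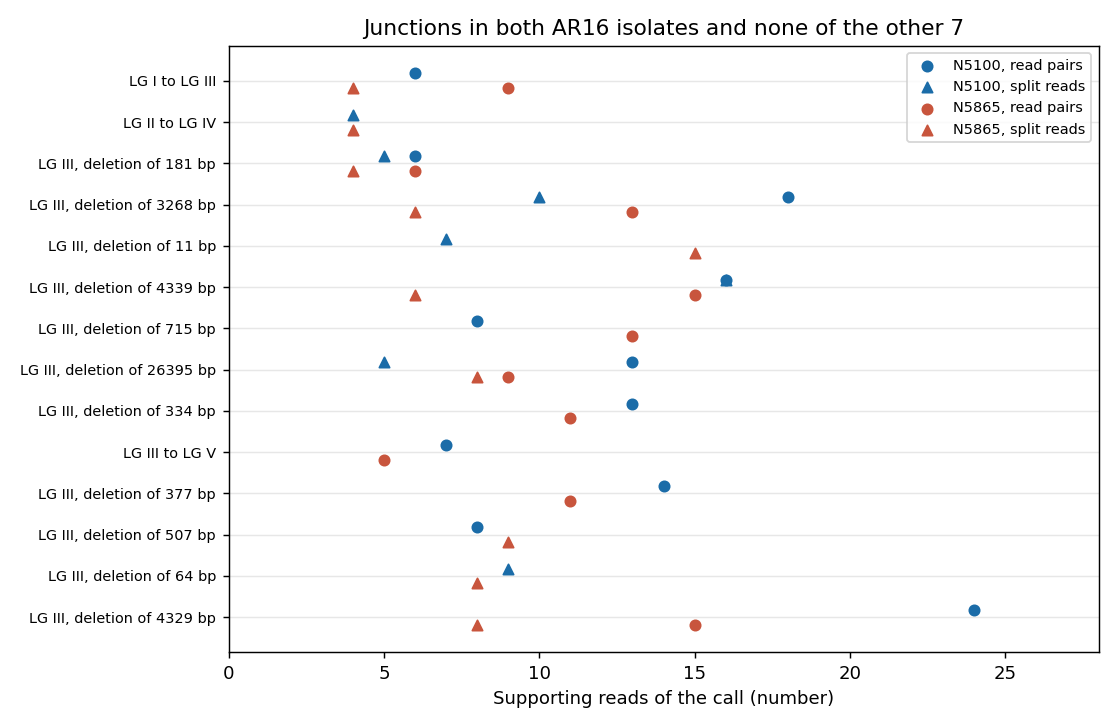
Each row is 1 of the 14 junctions found in both AR16 isolates and none of the other 7, and the symbols give the supporting reads per isolate and list (circles, read pairs; triangles, split reads; coincident symbols overlap). Reads run from 4 to 24, and 11 of the 14 rows are deletions on LG III.

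Inside this stretch the AR16 isolates resembled each other far more than elsewhere. N5100 had 15 distinct deletions there and N5865 had 13, of which 11 were common, 73.3% of the N5100 set and 84.6% of the N5865 set. No deletion of up to 100 kb was called there in any of the other 7 isolates. The stretch was delimited by the shared calls themselves, so these shares describe it and do not test it. On LG III to its left, N5100 had 22 deletions between 1702529 and 3246473 that no other strain had and N5865 had 2, and none was common. To its right N5100 had 3, the last ending at 4780509, and N5865 had 6, the first at 4968565, again with none in common.

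The deletions of the stretch that were not common were mostly short. N5100 alone had a deletion of 22206 bp at 4073347 with 25 read pairs and 10 split reads, 1 of 499 bp at 4152073 with 9 read pairs, and 2 of at most 35 bp with 7 and 5 split reads. N5865 alone had deletions of 21 and 27 bp, with 4 and 9 split reads. The deletion of 22206 bp was the longest of these differences and the one with most reads.

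Across the genome, the deletions that no other strain had were unevenly spread over the linkage groups, and differently in the 2 isolates. N5100 had 59 distinct deletions of up to 100 kb absent from the other 7 isolates, of which 40 (67.8%) were on LG III, 9 on LG VI, 5 on LG I, 3 on LG V and 2 on LG IV, with none on LG II or LG VII. N5865 had 195, of which 63 were on LG I, 63 on LG VII, 30 on LG VI, 21 on LG III, 14 on LG V, 3 on LG IV and 1 on LG II. LG VII thus held 63 such deletions in one isolate and none in the other. On LG III, 104 of the 106 N5100 calls of any type with an end there were in none of the other 7, whereas on LG I 38 of 66 were.

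**Figure D3:**
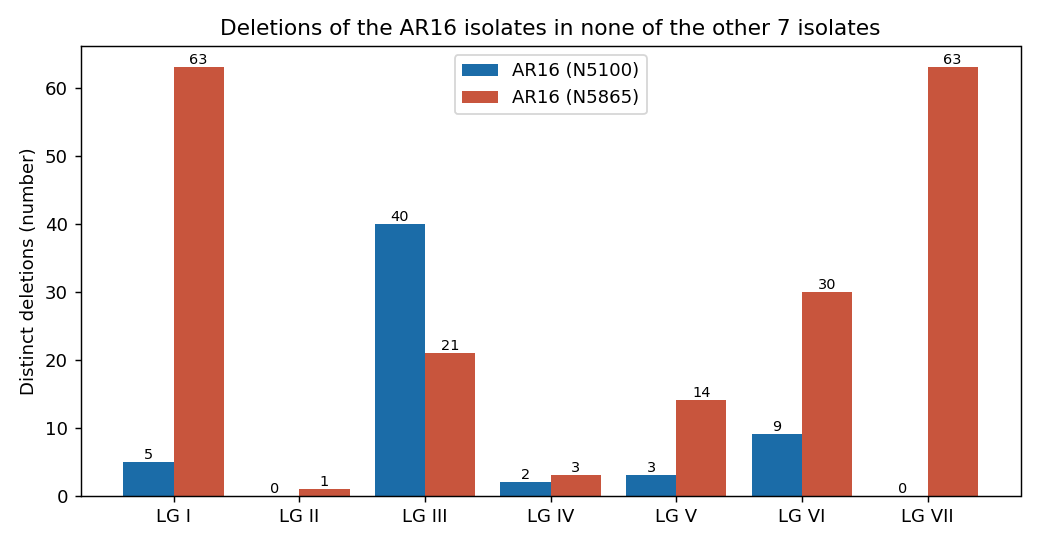
Bars give the number of distinct deletions of up to 100 kb that are in none of the other 7 isolates, by linkage group, for N5100 and N5865. LG III leads in N5100 with 40, LG I and LG VII lead in N5865 with 63 each, and LG VII has none in N5100.

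Within a linkage group these deletions were grouped into runs by distance. Where a linkage group holds many such deletions, the gap rule puts most of them in runs however they are spread. The shares below therefore describe the lists, and clustering was not tested. With a gap of over 500 kb ending a run and at least 5 deletions required, 49 of the 59 N5100 deletions (83.1%) fell in 2 runs and 186 of the 195 N5865 deletions (95.4%) fell in 8. The N5100 runs were LG III 1702529 to 4780193 with 40 deletions over 3.08 Mb and LG VI 3335044 to 3807929 with 9. The longest N5865 runs were LG I 4646965 to 9115120 with 46 deletions over 4.47 Mb and LG VII 143600 to 4246490 with 63 over 4.10 Mb. The others were on LG I from 21152 to 976173 (17 deletions), LG VI from 95747 to 1479897 (27), LG III (6 and 13) and LG V (5 and 9). The runs of the isolates overlapped only on LG III, at 3431309 to 3578155 and 4255549 to 4780193. The 11 deletions shared by the pair counted in the runs of both isolates, so overlap there was built in. N5865 had no such deletion between 4532411 and 4968565, and only the gap rule carried its run across that part.

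Gaps between neighbouring deletions numbered 12.7 per Mb in the LG III run of N5100, and 10.1 and 15.1 per Mb in the longest LG I run and the LG VII run of N5865. The runs covered 3.55 Mb in N5100 and 12.5 Mb in N5865. Of the other 7 isolates, counted by deletions found in no other isolate, UK2-32 had 2 runs covering 2.72 Mb, UK3-41 had 2 covering 1.61 Mb, OY350 had 1 covering 0.190 Mb, and 4 had none. Deletion runs were therefore not particular to AR16, and N5865 had the greatest covered length. The AR16 runs also counted deletions shared by the pair, so the lengths are not strictly comparable with those of the other 7.

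Private deletions, those in a single isolate, had a median span of 356.5 bp in N5100 (48 deletions, quartiles 113 and 7848 bp) and 326 bp in N5865 (184 deletions, quartiles 49.5 and 2466 bp). Spans over 1 kb made up 33.3% and 29.9%. The longest in N5100 were LG III 2185320 to 2236842, 51.5 kb with 26 read pairs and 12 split reads, and LG III 1702529 to 1749732, 47.2 kb with 14 and 6. The longest in N5865 were LG I 872377 to 924853, 52.5 kb with 13 read pairs, and LG VII 1039961 to 1079097, 39.1 kb with 19 and 4. The medians and the longest spans were thus close in the isolates, whereas both quartiles were higher in N5100.

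Calls in exactly 1 other isolate placed further blocks. N5865 shared more such calls with UK2-32 than with N5100, 52 in its own list and 48 in that of UK2-32, the highest of the 36 isolate pairs. Of these, 42 calls were deletions on LG I that formed 26 distinct deletions between 4878654 and 9175124, a stretch of 4.30 Mb, and 3 further deletions lay on LG III between 5170618 and 5247462. In the LG I stretch N5865 alone had 44 more deletions, UK2-32 alone had 4, and no deletion was in 3 or more isolates. The run of deletions private to UK2-32 on LG I, 2260140 to 4801372 with 31 deletions, ended next to this stretch.

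N5100 showed the same kind of sharing on the left part of LG I. It shared 13 calls with UK2-32 alone, including 5 distinct deletions between 1655286 and 2535709, and 5 calls with ALS159 alone, including 3 deletions between 785765 and 1349678. N5865 shared 3 deletions with OY320 alone on LG VI between 556293 and 945453 and 3 with ALS159 alone on LG III between 4862304 and 5023916. N5100 shared no call with only OY329, OY337, OY350, OY320 or UK3-41.

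**Figure D4:**
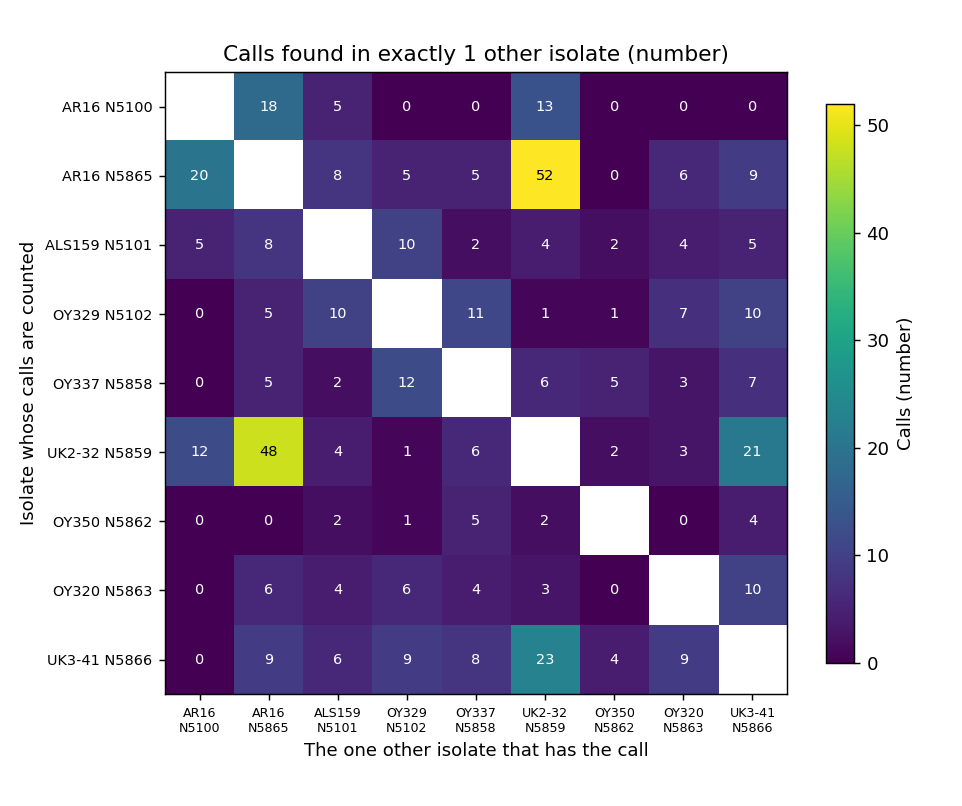
Each cell gives the number of calls of the isolate on the vertical axis that are found in exactly 1 other isolate, the one on the horizontal axis. The cells of N5865 with UK2-32 (52 and 48) exceed those of the AR16 pair (20 and 18), and 21 of the 36 pairs involve neither AR16 isolate.

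LG I, the linkage group that AR16 rearranges, was examined call by call for inversions and for deletions or duplications with ends at least 100 kb apart. The study lists the AR16 breakpoints of N5100 as not detected by sequencing and relied on genetic mapping for them. Its breakpoint analysis also set a minimum call weight and a score limit, which were not applied here. N5100 had 1 such call in no other strain, an inversion from 2552222 to 3952371 with 4 read pairs, the lowest number in any list. N5865 had 21, which formed 17 junctions when calls that differed in strand, or by over 100 bp at an end, were kept apart, 11 of them inversions, 4 duplications and 2 deletions. No such call with both ends on LG I was in both AR16 isolates and in no other strain. UK2-32, which is not listed as a rearrangement of LG I, also had many such calls. It had 11 LG I inversion calls, 8 of them in no other isolate, against 16 and 13 in N5865. Its LG I calls of any type with ends at least 100 kb apart numbered 21, with 15 in no other isolate, against 25 and 20 in N5865.

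Of the 17 junctions of N5865, 10 formed 5 sets in which 1 site was joined to both ends of a short segment elsewhere on LG I, and these had 7 to 20 reads. The site at 5046974 was joined to 6197268 (called a deletion, 20 read pairs and 4 split reads) and to 6200062 (a duplication, 10 read pairs). The site at 8603614 was joined in inverted orientation to 4801369 (13 and 4 reads) and 4801488 (11 and 7 reads), which are 119 bp apart. The site at 7146343 was joined to 1944980 (8 read pairs) and 1947333 (19 and 7 reads), and the sites at 5413317 and 6480487 to segments of 647 and 134 bp with 14 and 7, and 7 and 9, read pairs. In these cases each far call was 1 side of a short segment.

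The 7 other junctions had 4 to 6 reads each and none was in both lists. They were 5 inversions (21920 to 9501516, 872404 to 963782, 963658 to 9515114, 5927755 to 9508334 and 5935212 to 9490112) and 2 duplications (1024704 to 1864124 and 5482264 to 5643978). The inversions from 21920 and from 963658 spanned 9.48 and 8.55 Mb. A further N5865 inversion, 1340128 to 9501693 with 5 reads, was also in OY329 and OY337 with 4 reads each, and OY329 had an inversion of 8.58 Mb of its own with 5 reads. Long LG I inversion calls with 4 or 5 reads were thus not limited to AR16. The right ends of the inversions from 21920, 963658, 1340128, 5927755 and 5935212, and of those of OY329 and OY337, lay within 28.2 kb, 9486891 to 9515114. Within it N5865 had 8 calls with an end, N5100, ALS159 and UK3-41 had none, and the other 5 isolates had 1 to 3. The window was delimited by these same calls, so its counts describe it and do not test it.

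Such sets were not confined to LG I. A set was defined as a pair of calls that joined 1 site, within 50 bp and on opposite strands, to both ends of a segment. The segment had to be 50 to 15000 bp long, with its ends on opposite strands, and not to hold the site. N5100 had 14 sets and N5865 had 25, while UK2-32 had 16 and the other 6 had 0 to 3. Sets in no other isolate numbered 11 in N5100, 25 in N5865 and 12 in UK2-32. Taking those in no other strain, 12 in N5100 and 25 in N5865, the segment was on another linkage group than the site in 11 and 19. In all 12 sets of N5100 and 24 of the 25 of N5865 the strands of both junctions read out of the segment. A copy of the segment lying at the site would give this arrangement. The definition left only strands that read out of the segment or into it. Every set of the other 7 isolates also read out, including all 16 of UK2-32, so the arrangement was not particular to AR16.

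The segments were short. Their median length was 429 bp in N5100 (94 to 7987) and 612 bp in N5865 (53 to 14651), and 10 of 12 and 15 of 25 were under 1 kb. Their sites lay inside a deletion run in 7 of 12 cases in N5100 and 21 of 25 in N5865, whereas the segments came from a run in 1 and 12 cases. These runs were built on deletions absent from the other 7 isolates and included those shared by the AR16 pair. Sites inside a run also occurred among sets of the other 7 isolates, so this placement was not particular to AR16. The share expected from the length of the runs was not computed, so the placement was not tested. The best supported N5100 sets were a 352 bp segment of LG III (1897620 to 1897972) at LG III 2563247 with 27 and 16 read pairs, and a 507 bp segment of LG VI (2244644 to 2245151) at LG III 2408764 with 22 and 21. In N5865 a segment of LG VI, 501863 to 505474, was joined to 3 sites on LG I, at 5848300 with 14 and 8 read pairs, at 7806542 with 12 and 10, and at 8439434 with 5 and 9.

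Some segments recurred in both isolates at different sites. The 352 bp segment of LG III was joined to LG VI 506729 in N5865 with 14 and 11 read pairs, and UK2-32 had it at LG I 2903058. A 495 bp segment of LG VII (566669 to 567164) was joined to LG III 3139152 in N5100 with 13 and 21 read pairs and to LG VII 2788561 in N5865 with 10 and 5. A 56 bp stretch of LG II at 614288 was joined in N5100 to LG III at 2124619 and 4751644 and in N5865 to LG III 4948408 and LG VII 3981624. The 2353 bp segment at LG I 1944980, already named, had calls to LG III 3738704 in both, to LG III 1994202 in N5100 (12 read pairs and 12 split reads) and to LG I 7146343 in N5865. Of the 33 distinct segments in these sets, 7 had a call from one of their ends to a place outside the segment in both AR16 isolates, 8 had such a call in at least 1 of the other 7 isolates, and 20 had it in a single isolate.

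Of the 33 segments, 14 were also called as a deletion with the same ends, within 100 bp, in at least 1 isolate. For 8 segments, accounting for 10 sets, the deletion was in N5865, the isolate that had the set, and for none was it so in N5100. The 647 bp segment at LG I 6600350, joined to LG I 5413317, was a deletion in N5865 with 20 read pairs and 11 split reads. The segment of 612 bp at LG III 5062294, joined to LG I 6280917 with 11 and 5 read pairs, was a deletion there with 12 and 8 reads. In these cases the segment was called missing from its reference place and joined to another place in the same library. N5100 had no set for the 2353 bp segment at LG I 1944980. It did have a deletion of that segment, with 20 read pairs and 14 split reads, beside its joins from there to LG III.

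In other cases the deletion and the set were in different isolates. The interval of 9742 bp at LG III 2881136 was a deletion in N5100 with 27 read pairs and 9 split reads, among the calls with most reads in that isolate, and was joined to LG VII 46159 in N5865 with 10 and 6 read pairs. The 7987 bp segment of LG V at 6104633 was joined at both ends to LG III 4310202 in N5100 with 7 and 17 read pairs, and in N5865 it was a deletion with 7 read pairs and 4 split reads. N5865 also had the first of these joins, with 5 read pairs, which is the LG III to LG V junction shared by the pair. The 263 bp segment at LG I 618768, joined to LG IV 2978322 in N5865 with 14 and 11 read pairs, was a deletion in N5100 (21 read pairs), ALS159 and UK2-32.

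**Figure D5:**
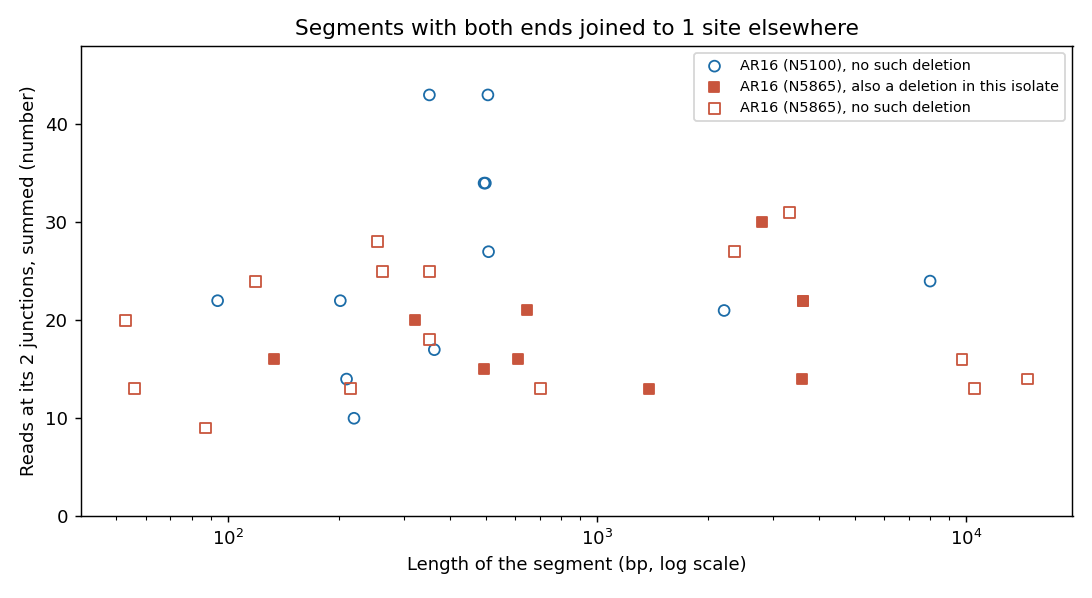
Each point is 1 set in none of the other 7 isolates, with the length of its segment on a log scale and the reads at its 2 junctions summed. Sums run from 10 to 43 in N5100 (circles) and from 9 to 31 in N5865 (squares), and filled symbols mark the 10 N5865 sets whose segment was also called as a deletion in that isolate.

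The interchromosomal junctions found in both lists of an AR16 isolate and in none of the other 7 numbered 6 in N5100 and 19 in N5865. In N5100 they joined LG I 1944977 to LG III 1994202, LG I 2138158 to LG II 3981640 (21 read pairs and 9 split reads), LG I 2471291 to LG VII 524361, LG I 2477623 to LG V 579865 (21 and 4), LG II 614288 to LG III 2124619 (11 and 6) and LG III 673027 to LG VI 3661559 (4 and 11). The calls with 21 read pairs ended at LG II 3982139 and LG V 580374, the other sides of those segments. In N5865 the most read pairs were at LG II 393110 to LG III 5170126 (20 and 8). The neighbouring junction from LG II 389786 to LG III 5170125 had 11 and 9, and together they formed the only N5865 set whose strands did not read out of its segment. LG I 6748336 to LG VII 2122621 (18 and 12), LG IV 5938147 to LG VII 4228382 (17 and 4), LG I 618768 to LG IV 2978322 (14 and 8), LG IV 2018313 to LG VII 1948087 (14 and 4) and LG I 6087178 to LG VII 3862084 (12 and 9) followed. For LG I 6087178 the call with 12 read pairs ended at the other side of the segment, 6087499. LG VI 993476 and LG I 6768538 were both joined to LG VII 779362, with 12 and 8, and 6 and 5, reads.

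The other N5865 junctions of this kind had 6 to 11 read pairs. Those from LG I ran from 8104817 to LG II 4167368, from 8192640 to LG IV 1880886, and from 260742 and 9758451 to LG VI, at 3802833 and 1123892. The rest joined LG II 500234 to LG IV 3284970, LG V 1016619 to LG VII 2156164, LG II 614288 to LG III 4948408 and to LG VII 3981624, and LG III 2887436 to an unplaced contig. At LG VII 3981624 the read pairs were at one side of the 56 bp segment and the split reads at the other. The last of the 19 was the LG I to LG III junction shared by the pair. Calls that belonged to a set made up 25 of the 68 interchromosomal calls that N5100 had and no other strain had, 36.8%, and 46 of 204 in N5865, 22.5%.

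Among the 10 calls of most reads specific to each isolate, those of N5100 had 21 to 27 reads and those of N5865 20 to 29, all in the read-pair lists. N5100 had a join of 1897620 with 2563251 on LG III (27 reads), 5 deletions (LG III 2881133, 27 reads; LG III 2185320, 26; LG I 1550597, 25; LG III 4073347, 25; LG III 1801076, 23) and 4 interchromosomal calls, and 7 of the 10 had an end on LG III. N5865 had interchromosomal calls at LG I 4067672 to LG VII 3431393 (29), LG I 5504649 to LG VII 1149571 (21) and LG II 393110 to LG III 5170126 (20). Its deletions were LG VII 1001323 (29), LG I 6998268 (22), LG VII 2360159 (21), LG I 5046975 (20), LG I 6600358 (20) and LG VI 1250294 (20), and an inversion of 99 bp at LG VI 748499 had 20. None of these N5865 calls was on the part of LG III where the isolates agreed.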

How the data were processed

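Input DNA of 9 rearrangement isolates, 1 library each, was used. According to the study's methods, bwa-mem gave the incongruous pairs and the split alignments, from which the authors made breakpoint calls with LUMPY. The corrected OR74A (NC12) genome is named for the ChIP mapping, and contigs 1 to 7 were taken as LG I to VII. Each call has an evidence set score, deposited by the authors and smaller for stronger calls, and a count of supporting reads, deposited by the authors without scaling for depth. A score written as infinite occurred in 28 calls, 6 of them in AR16. The 3 incomplete lines were left out.

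Call ends were the most probable positions in the lists. Matching calls had left and right ends each at most 1000 bp apart, whatever their type, and distinct junctions merged matching calls across lists and isolates. Shares have exact (Clopper-Pearson) 95% binomial intervals. No test of one isolate against another was run, since each isolate is 1 library. The only test was a screen for outlying isolates, described below. Matching and set finding were checked on simulated calls (Python 3, pandas, scipy). Calls named were all junctions restricted to the AR16 pair, the LG I inversions and far calls, the interchromosomal junctions in both lists and the 10 specific calls of most reads. Sets and runs were added after seeing the data, as were their examples. Members and lists were chosen with earlier results of these data known. The mRNA counts were not used here, because gene positions could not be placed on the build of the calls.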

Additional observations from a re-analysis of the deposited data

Results flagged for a closer look

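Over the 9 isolates, 9 measures were screened for an isolate far from the rest, and chance flags about 1 in 20 such groups. Both flags were for N5865. Its number of calls, 718, was far above the next isolate, UK3-41 with 364. Its number of calls found in no other isolate, 480, was far above the next, UK2-32 with 168. The ratios were 0.628 and 0.696, and the flags are not independent, since the 480 calls are part of the 718. The percent of calls found in no other isolate did not stand apart for N5865, since N5100 (69.0%) and N5865 (66.9%) lay close together. The median reads of read-pair calls in N5865, 7, lay between those of N5100 (8.5) and the other 7 (5 to 6), and the part of library depth in its number of calls was not tested.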

How the results depend on the processing

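Of 86 comparisons of a result with an alternative, 66 stayed within 1.5 times the reported count. With at least 10 reads, calls fell to 84 in N5100 and 197 in N5865, calls restricted to the AR16 pair to 7 and 5, specific calls to 60 and 136, and 2-junction sets to 5 and 8, whereas a common site within 200 bp raised the sets of N5865 to 38. With read-pair lists only, calls restricted to the pair were 10 in each isolate, and with split-read lists only 7 in each, with 45 and 159 specific calls. Without calls ending on LG III, 1 call restricted to the pair remained in each list. The LG I calls of the 2 isolates were 0 and 4 with split-read lists only, and that of N5100 was lost (0) with at least 5 reads. Leaving out each other isolate in turn gave 145 to 163 specific calls in N5100 and 480 to 532 in N5865. The alternatives for sets, runs, LG I calls and LG III were chosen after seeing the data. No paired analysis was possible because each isolate is 1 library, and the mRNA test with its alternatives (other normalization, no filter, left-out libraries, replicate block) was not run.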
